A study of Sus scrofa with 16 samples.

Results

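Notch signalling passes between cells that touch each other. The receptors NOTCH1, NOTCH2 and NOTCH3 sit in the membrane of the receiving cell, and the ligands JAG1, JAG2 and DLL1 in that of its neighbour. Ligand binding leads to cleavage of the receptor, and the released intracellular domain enters the nucleus, joins the DNA-binding protein RBPJ and the coactivator MAML1 and switches on target genes such as HES1 and HEY1, which encode transcriptional repressors. In the pituitary the pathway is known for keeping progenitor cells undifferentiated and for guiding the choice between hormone cell lineages, and it is also used by blood vessels. These 10 genes were examined in pituitary RNA of pigs that differed in feed conversion. Of the 10, 9 were found under their symbols in the deposited gene table, of 25880 genes in all. DLL1 carried no symbol there and was identified by its Ensembl number in a gene name table.

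RNA was sequenced from the whole pituitary, both lobes included, of 16 female Złotnicka White pigs, a native Polish breed. The labels give day 180 for every pig. All were kept at 1 test station on the same feed and slaughtered at a common body weight. By the authors' account the age at that weight varied between pigs. The pigs were unrelated and came from different farms, so the pigs of a group are separate animals, and the groups differed in feed conversion, the feed used per unit of weight gain. It was low in 8 pigs (LFC) and high in 8 pigs (HFC). The authors also report slower daily gain, a longer time in the test and less carcass meat in the HFC pigs. Fat was thicker in the HFC pigs at several of the points they measured. A difference between the groups thus cannot be assigned to feed conversion apart from growth rate, time in the test or fatness. The labels carry this group under a tag named shear force, with the values low_FCR and high_FCR, and were read as the feed conversion groups. No treatment, genotype or batch is given.

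The counted reads of a pig summed to 6010629 at the lowest and 11794256 at the highest, with medians of 7803047 (LFC) and 9027332 (HFC). Of 12 marker genes of pituitary hormone cells 10 were tested, with a summed level between 97386 and 217814 CPM over all pigs, CPM being the reads of a gene scaled to the size of its library. The genes that define the labelled tissue were thus abundant in every pig. Of the hormone cell genes PRL was higher and POMC, CGA and TBX19 were lower in the HFC pigs when the p was left unadjusted (0.05 or less). This was 1 of 10 higher and 3 of 10 lower, against 7.03% and 4.41% of all genes tested. The markers of the posterior lobe, of which 5 of 7 were tested, summed to between 140 and 5969 CPM in the LFC and between 125 and 3306 CPM in the HFC pigs, a wide spread over the pigs of both groups. In RNA of a whole gland, fewer cells of a type and less RNA per cell cannot be told apart. Levels are given as TMM-scaled CPM and were compared between pigs only, since CPM is not corrected for gene length and the lengths of the transcripts were not at hand.

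The comparison of HFC with LFC pigs asks whether the Notch genes differ between the feed conversion groups, which also differed in growth and fatness. All 3 receptors were measured at a higher mean level in the HFC pigs, by 1.38 to 1.51 times, both Jagged ligands by 1.16 to 1.24 times, and the target genes HES1 and HEY1 at 0.946 and 0.997 times the LFC level. None of the differences passed the adjusted threshold. A gene was called when its Benjamini-Hochberg adjusted p in edgeR's quasi-likelihood test was 0.05 or less and its fold change 1.3 or more, and 0 of the 9 Notch genes tested and 0 of all 13621 genes tested (0%) were called. By the unadjusted p of the same test, NOTCH1, NOTCH2 and NOTCH3, which are 3 of 9, were higher in the HFC pigs (p of 0.05 or less), against 7.03% of all genes. None of the 9 was lower, against 4.41% of all genes, and 7 of 9 had a log2 fold change above 0, against 47.9%. The authors had named the 3 receptors among the differential genes of these pigs, and the Notch genes were chosen with earlier results known. These shares are thus not independent support. The authors made their calls by DESeq2 at the same thresholds. Here DESeq2 called 30 of all genes and 0 of the Notch genes, and why the calls differ was not tested. They also measured NOTCH1 by qPCR in the same pigs, which by their account bore out their sequencing values. The median log2 fold change was 0.21 over the 9 genes and -0.01 over all genes tested. Over all genes the split of unadjusted calls depended on the scaling, with 958 higher and 601 lower after TMM scaling, 852 and 769 after upper-quartile scaling, and 639 and 750 after scaling by total counts alone. The count of 3 among the 9 Notch genes rested on single pigs. It was 0 without HFC replicate 1, against 4.87% of all genes. Without LFC replicate 3, 4, 6 or 8 or HFC replicate 4 it was 1, against 4.53% to 7.2%. Without LFC replicate 2 or HFC replicate 8 it was 5, against 9.69% and 6.93%. It was 1 with scaling by total counts, against 4.69% of all genes, and 0 with 1 surrogate variable in the model, against 2.58%.

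**Figure D1:**
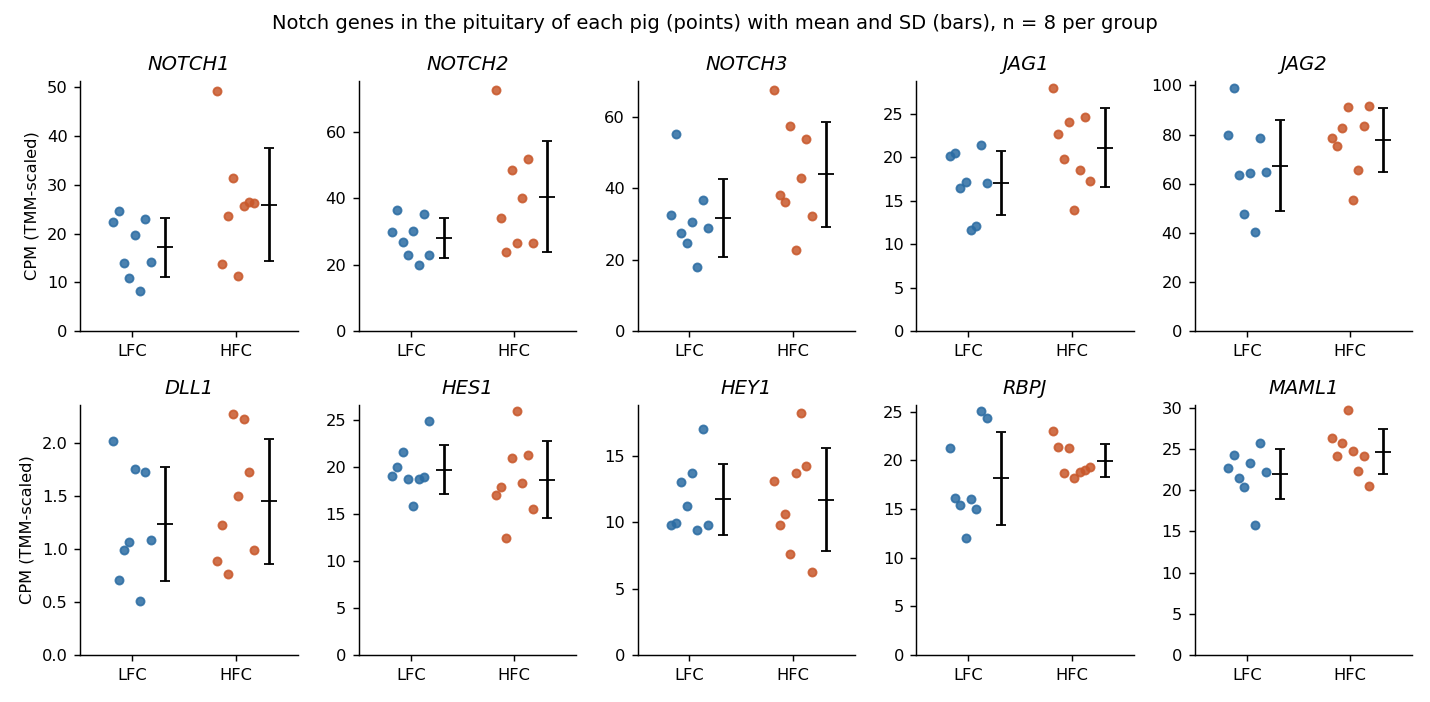
Level of each of the 10 Notch genes in the pituitary of every pig, in TMM-scaled CPM on a linear axis from 0 that differs between panels. Points are pigs (blue, LFC; orange, HFC), bars are the mean and SD of 8 pigs. In the receptor panels the HFC pigs reach higher (NOTCH1 up to 49.2 CPM against 24.6 CPM) while overlapping the LFC pigs, and in the HES1 and HEY1 panels the groups lie over each other.

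NOTCH1 (ENSSSCG00000038509) was annotated on an unplaced scaffold of Sscrofa11.1 and had between 48 and 442 counts per pig. The LFC pigs ran from 8.21 to 24.6 CPM with a median of 17.0 CPM. The HFC pigs ran from 11.3 to 49.2 CPM with a median of 25.9 CPM. HFC replicate 1 was the highest and LFC replicate 6 the lowest of all pigs, 5 of 8 HFC pigs lay above every LFC pig, and HFC replicates 2 and 5, at 13.8 and 11.3 CPM, lay among the low LFC pigs. The mean was 17.2 ± 6.10 CPM among the LFC and 25.9 ± 11.6 CPM among the HFC pigs (SD, n = 8). This gave a log2 fold change of 0.59 ± 0.26 (SE), with an unadjusted p of 0.0369 and an adjusted p of 0.429 by edgeR's quasi-likelihood test. For NOTCH1 the exact two-sided permutation test, which goes through all 12870 ways to split the pigs, gave p = 0.0872.

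NOTCH2 (ENSSSCG00000006709), a receptor that is also used by vessel walls and connective tissue cells, lies on chromosome 4 (chr4:100951359-101150179). For the pituitary the authors cite a study of mice lacking Notch2, in which the expression of several hormone genes was changed. NOTCH2 ran from 19.8 to 36.4 CPM (median 28.3) among the LFC pigs and from 23.8 to 72.6 CPM (median 37.0) among the HFC pigs. Of the HFC pigs, 4 of 8 lay above every LFC pig, led by HFC replicate 1, while HFC replicates 3, 5 and 8 lay between 23.8 and 26.6 CPM, below the LFC median. The mean was 28.0 ± 5.97 CPM (SD, n = 8) among the LFC and 40.5 ± 16.6 CPM (SD, n = 8) among the HFC pigs. The change was, on the log2 scale, 0.53 ± 0.21 (SE), with an unadjusted p of 0.0194 and an adjusted p of 0.413 (edgeR), and the exact permutation test gave p = 0.0587.

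NOTCH3 (ENSSSCG00000025176), the receptor typical of smooth muscle cells and pericytes of vessels, lies on chromosome 2 (chr2:62364508-62405996). NOTCH3 ran from 17.96 to 55.2 CPM (median 29.8) among the LFC pigs and from 22.7 to 67.6 CPM (median 40.6) among the HFC pigs. Only HFC replicates 1 and 4 lay above every LFC pig, because LFC replicate 2 reached 55.2 CPM, yet 7 of 8 HFC pigs lay above the LFC median. The mean was 31.8 ± 11.0 CPM (SD, n = 8) among the LFC and 43.9 ± 14.8 CPM (SD, n = 8) among the HFC pigs. For NOTCH3 the log2 fold change was 0.46 ± 0.22 (SE), with an unadjusted p of 0.0451 and an adjusted p of 0.433 (edgeR), and the exact permutation test gave p = 0.0813.

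The order of the pigs was much the same for the 3 receptors. HFC replicate 1 ranked 1 and LFC replicate 6 ranked 16 on each of them. Without HFC replicate 1 the log2 fold changes were 0.40 for NOTCH1, 0.36 for NOTCH2 and 0.35 for NOTCH3, with unadjusted p of 0.117, 0.0606 and 0.115 by edgeR's quasi-likelihood test. A scaling-free measure, the share of each receptor in the summed receptor counts of a pig, differed between the groups by less than its spread. NOTCH1 made up 21.9% ± 3.00 of these counts in the LFC and 23.3% ± 4.99 in the HFC pigs (SD, n = 8, exact permutation p = 0.513). NOTCH2 made up 37.1% ± 3.56 and 36.6% ± 4.91 (SD, n = 8, exact permutation p = 0.820), and NOTCH3 41.0% ± 3.31 and 40.1% ± 3.02 (SD, n = 8, exact permutation p = 0.592). The shares are of reads, not of molecules, since a longer transcript gives more reads. With each pig left out, the differences in share, HFC minus LFC, ran from 0.290 to 2.41 percentage points for NOTCH1, from -1.55 to 0.658 for NOTCH2 and from -1.48 to 0.0590 for NOTCH3.

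JAG1 (ENSSSCG00000007067), a ligand that also stands among the Notch targets in several tissues, lies on chromosome 17 (chr17:19588020-19630085). Its lowest, median and highest levels were 11.6, 17.1 and 21.4 CPM in the LFC and 13.9, 21.3 and 27.9 CPM in the HFC pigs. The groups overlapped, with 4 of 8 HFC pigs above every LFC pig and 7 of 8 above the LFC median. The mean was 17.0 ± 3.67 CPM (SD, n = 8) and 21.1 ± 4.54 CPM (SD, n = 8), and the log2 fold change was 0.31 ± 0.15 (SE), with an unadjusted p of 0.0586 and an adjusted p of 0.438 (edgeR). The exact permutation test gave p = 0.0816 for JAG1.

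JAG2 (ENSSSCG00000002555), the second Jagged ligand, was annotated on an unplaced scaffold. Among the LFC pigs JAG2 ran from 40.5 to 98.9 CPM (median 64.6), and among the HFC pigs from 53.5 to 91.7 CPM (median 80.6). No HFC pig lay above LFC replicate 2, the highest of all, and 7 of 8 lay above the LFC median. The mean was 67.3 ± 18.6 CPM (SD, n = 8) and 77.7 ± 13.0 CPM (SD, n = 8), with a log2 fold change of 0.21 ± 0.16 (SE), an adjusted p of 0.546 (edgeR) and an exact permutation p of 0.191.

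DLL1 (ENSSSCG00000027726), a Delta ligand, was close to the limit of detection, with between 3 and 23 counts per pig and 78 and 105 counts in all over the LFC and HFC pigs. It did not pass the expression filter and so was not among the genes tested. The lowest, median and highest levels of DLL1 were 0.513, 1.08 and 2.02 CPM in the LFC and 0.761, 1.36 and 2.28 CPM in the HFC pigs (exact permutation p = 0.442). A difference was not detectable at this depth. Among the counts of the 3 ligands of a pig, JAG1 took 20.3% ± 3.38 in the LFC and 21.1% ± 2.99 in the HFC pigs (SD, n = 8, exact permutation p = 0.650), and JAG2 took 78.2% ± 3.34 and 77.5% ± 3.095 (SD, n = 8, exact permutation p = 0.637). DLL1 took 1.46% ± 0.543 and 1.498% ± 0.686 of them (SD, n = 8, exact permutation p = 0.893).

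The nuclear partners of the receptors had smaller fold changes than the receptors, a difference that was not tested. RBPJ (ENSSSCG00000022155), the DNA-binding protein of the pathway, lies on chromosome 8 (chr8:19932466-20166754). RBPJ ran from 12.01 to 25.1 CPM (median 16.1) among the LFC pigs and from 18.2 to 23.0 CPM (median 19.2) among the HFC pigs. All 8 HFC pigs lay above the LFC median of RBPJ, but inside the LFC range, because LFC replicates 1, 7 and 8 lay between 21.3 and 25.1 CPM. The coefficient of variation was 26.3% in the LFC and 8.57% in the HFC pigs, and this difference in spread was not tested. RBPJ had a log2 fold change of 0.13 ± 0.14 (SE), with an adjusted p of 0.656 (edgeR) and an exact permutation p of 0.241. MAML1 (ENSSSCG00000014019), a Mastermind coactivator on chromosome 2 (chr2:78818411-78876615), had lowest, median and highest levels of 15.7, 22.5 and 25.7 CPM in the LFC and 20.5, 24.4 and 29.7 CPM in the HFC pigs. The groups overlapped over most of their range, with 3 of 8 HFC pigs above every LFC pig. Here the log2 fold change was 0.16 ± 0.10 (SE), with an adjusted p of 0.488 (edgeR) and an exact permutation p of 0.0816.

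The target genes had log2 fold changes close to 0. HES1 (ENSSSCG00000031356), a repressor that keeps progenitor cells from differentiating, lies on chromosome 13 (chr13:131135530-131140304). Its lowest, median and highest levels were 15.8, 19.0 and 24.9 CPM in the LFC and 12.4, 18.04 and 25.9 CPM in the HFC pigs. Of the HFC pigs, 3 of 8 lay above the LFC median and 2 lay below every LFC pig, and the pig with the highest HES1 was HFC replicate 5, which ranked 14, 11 and 15 on NOTCH1, NOTCH2 and NOTCH3. The mean was 19.7 ± 2.64 CPM (SD, n = 8) and 18.6 ± 4.08 CPM (SD, n = 8), with a log2 fold change of -0.08 ± 0.13 (SE) and a 95% confidence interval from -0.35 to 0.19. The adjusted p of HES1 was 0.768 (edgeR) and the exact permutation p 0.472. HEY1 (ENSSSCG00000006159), a related repressor with a known part in vessels, lies on chromosome 4 (chr4:56859606-56866039). HEY1 ran from 9.41 to 17.1 CPM (median 10.6) and from 6.22 to 18.3 CPM (median 11.9), with the LFC pigs inside the HFC range. The log2 fold change of HEY1 was -0.01 ± 0.19 (SE), with a 95% confidence interval from -0.41 to 0.40, an adjusted p of 0.986 (edgeR) and an exact permutation p of 0.827. With each pig left out the log2 fold change of HEY1 ran from -0.13 to 0.11.

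Targets were also set against receptors inside each library, which needs no scaling between libraries. The log2 ratio of HES1 and HEY1 counts to the counts of the 3 receptors had lowest, median and highest values of -1.96, -1.19 and -0.71 in the LFC and -2.65, -1.88 and -0.61 in the HFC pigs. The ratio was below the LFC median in 7 of 8 HFC pigs, lowest in HFC replicate 1 and highest in HFC replicate 5. Its mean was -1.24 ± 0.41 (SD, n = 8) in the LFC and -1.81 ± 0.59 (SD, n = 8) in the HFC pigs, a difference of -0.56 that ran from -0.73 to -0.44 with each pig left out. No test is given for this sum over chosen genes.

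Over all 16 pigs the receptors and ligands varied together, while no relation of a target with them passed. Pearson's r was 0.81 for NOTCH1 with NOTCH2, 0.89 for NOTCH1 with NOTCH3 and 0.90 for NOTCH2 with NOTCH3, with Spearman's rho of 0.74, 0.85 and 0.88. The adjusted permutation p of these 3 pairs lay between 0.00018 and 0.00849 over 36 pairs of Notch genes. The relation held inside the groups, with r from 0.89 to 0.95 in the LFC and from 0.70 to 0.89 in the HFC pigs, and after leaving out the 2 pigs most distant from the median of the first gene, with r from 0.64 to 0.86. For the 6 pairs of a ligand with a receptor r lay between 0.55 and 0.84, and 5 of the 6 passed the adjusted threshold by both r and rho. JAG2 with NOTCH2, at r = 0.55, was the exception. JAG1 and JAG2 had r = 0.69 and rho = 0.69, with adjusted permutation p of 0.0118 and 0.0158.

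HES1 and HEY1 had r between -0.34 and 0.27 with the receptors and between -0.25 and -0.00 with the Jagged ligands. None of these 10 pairs passed the adjusted threshold, and the adjusted permutation p lay between 0.166 and 0.995. HES1 with HEY1 did not pass either, with r = 0.14 and rho = 0.06 (adjusted permutation p of 0.784 and 0.944). MAML1 had r between 0.64 and 0.73 with the receptors and Jagged ligands, and 3 of these 5 pairs passed by both measures, while RBPJ had r between 0.44 and 0.54 with them and 0 of 5 passed. In all, 12 of 36 pairs passed by both r and rho. The r of the passing pairs changed with the scaling but kept its sign, from 0.76 to 0.92 for the receptor pairs when group means were removed or libraries were scaled by total counts alone.

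**Figure D2:**
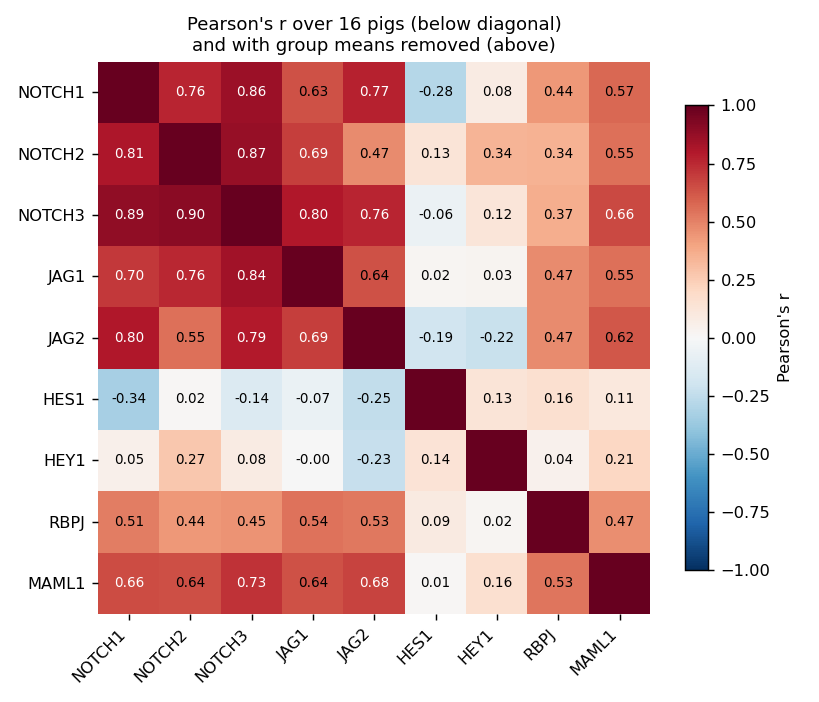
Pearson's r of log2(CPM + 1) between the 9 Notch genes tested, over 16 pigs (below the diagonal) and with group means removed (above it), on a colour scale from -1 to 1. The block of receptors and Jagged ligands holds r from 0.55 to 0.90 below the diagonal, and the rows and columns of HES1 and HEY1 are pale, with r from -0.34 to 0.27 with that block.

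For each Notch gene the tested gene with the most similar profile over the 16 pigs was found, after removal of group means and among 12801 genes with a symbol. It was LUZP1 for NOTCH1 (r = 0.92), FRAS1 for NOTCH2 (r = 0.94) and FAT1 for NOTCH3 (r = 0.96). FRAS1 encodes an extracellular matrix protein and FAT1 a giant protocadherin. For the ligands it was DCP1A, an mRNA decapping factor, with JAG1 (r = 0.90) and EDC4, an enhancer of decapping, with JAG2 (r = 0.97). It was GATA2 for RBPJ (r = 0.90), a transcription factor of gonadotropes and thyrotropes, and DHX37 for MAML1 (r = 0.89), an RNA helicase. The nearest genes of the targets were CDKN1B for HES1 (r = 0.82), a cell cycle inhibitor, and MR1 for HEY1 (r = 0.82), an antigen-presenting molecule. The number of genes with r of at least 0.8 was 912 for JAG2, 330 for NOTCH3, 319 for NOTCH1 and 139 for NOTCH2, against 31 for MAML1, 26 for JAG1, 20 for RBPJ, 3 for HEY1 and 2 for HES1. The receptor and JAG2 profiles were thus shared with many genes outside the pathway. These r values describe 16 pigs and share their libraries. Each nearest gene was picked as the highest of 12801 r values. Part of a high r is thus due to the picking, most of all for HES1 and HEY1, and none was tested. MR1 was also low, with means of 2.01 CPM in the LFC and 1.87 CPM in the HFC pigs. No shared role can be read from the names of the nearest genes.

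One measure that moved with the receptors was a slope per pig. For each pig the deviation of log2(CPM + 1) from the mean of all pigs was regressed on the log2 of the genomic span of the gene, over 10890 tested genes with a known position. A positive slope means that genes with a long span had more, and genes with a short span fewer, of the reads of that pig than on average. The slope had lowest, median and highest values of -0.0826, -0.0108 and 0.0350 in the LFC and -0.0643, 0.0196 and 0.0640 in the HFC pigs. It was below the LFC median in 1 of 8 HFC pigs, and the difference did not pass the exact permutation test (p = 0.125). HFC replicate 1 had the highest slope and LFC replicate 6 the lowest, the same pigs that were highest and lowest on the 3 receptors.

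The slope was related to NOTCH1 (r = 0.86, rho = 0.80), NOTCH3 (r = 0.86, rho = 0.84), JAG1 (r = 0.76, rho = 0.79) and JAG2 (r = 0.90, rho = 0.81). For these 4 genes the adjusted permutation p lay between 0.0012 and 0.0142 over 90 relations of a Notch gene with a measure of the pigs, and r was between 0.77 and 0.81 without the 2 pigs with the farthest slopes. The relation was present inside both groups for NOTCH1, with r = 0.86 in the LFC and 0.83 in the HFC pigs, and for NOTCH3, with r = 0.86 and 0.81. MAML1 passed as well (r = 0.69, rho = 0.73, adjusted permutation p of 0.0296 and 0.0255), but its r was 0.40 without the 2 farthest pigs and 0.29 within the HFC pigs, so this relation rested on those pigs. NOTCH2 (r = 0.67, rho = 0.57) and RBPJ (r = 0.69, rho = 0.62) passed by r and not by rho. HES1 (r = -0.28, rho = -0.24) and HEY1 (r = -0.09, rho = -0.12) did not pass by either.

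**Figure D3:**
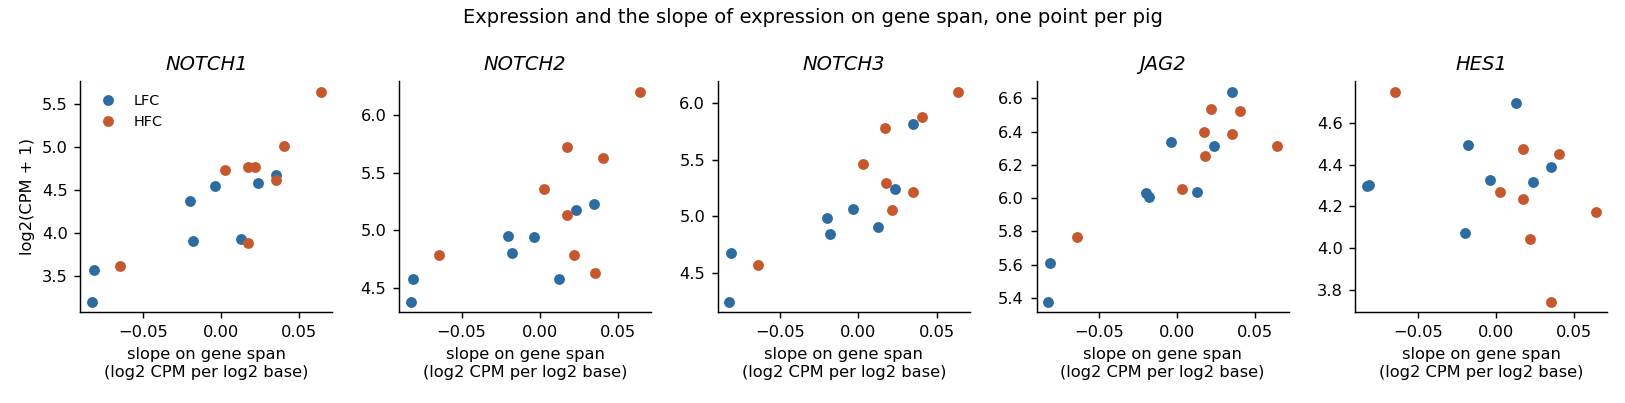
Level of 5 Notch genes (log2(CPM + 1), axes not starting at 0) against the slope of expression on genomic span, 1 point per pig (blue, LFC; orange, HFC). NOTCH1, NOTCH3 and JAG2 climb with the slope in both groups (r = 0.86, 0.86 and 0.90), NOTCH2 less closely (r = 0.67), and HES1 does not (r = -0.28).

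The Notch genes themselves differ in span. HES1 (4.78 kb), HEY1 (6.43 kb) and JAG2 (14.7 kb) are compact, NOTCH3 (41.5 kb), JAG1 (42.1 kb), NOTCH1 (43.3 kb) and MAML1 (58.2 kb) are intermediate, and NOTCH2 (199 kb) and RBPJ (234 kb) are long. Over all genes, 30.6% of the class with the shortest spans and 63.9% of the class with the longest, of 4 classes of equal size, were higher in the HFC pigs. By the unadjusted p (0.05 or less), 2.97% of the shortest class, which holds HES1 and HEY1, were higher in the HFC pigs. It was 4.30% in the next class, which holds JAG2, 7.35% in the third, which holds NOTCH1, NOTCH3, JAG1 and MAML1, and 12.8% in the longest, which holds NOTCH2 and RBPJ. When 1 surrogate variable estimated from all genes was added to the model, the log2 fold changes were 0.06 for NOTCH1, 0.24 for NOTCH2 and 0.06 for NOTCH3, with unadjusted p of 0.734, 0.232 and 0.682 (edgeR). That variable had r = 0.98 with the slope over the 16 pigs. It also had r = 0.89 with NOTCH1, 0.69 with NOTCH2 and 0.88 with NOTCH3 themselves. A model that holds it thus takes out much of the receptors' own variation, and the smaller fold changes do not show where the differences came from. What the slope reflects was not tested.

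**Figure D4:**
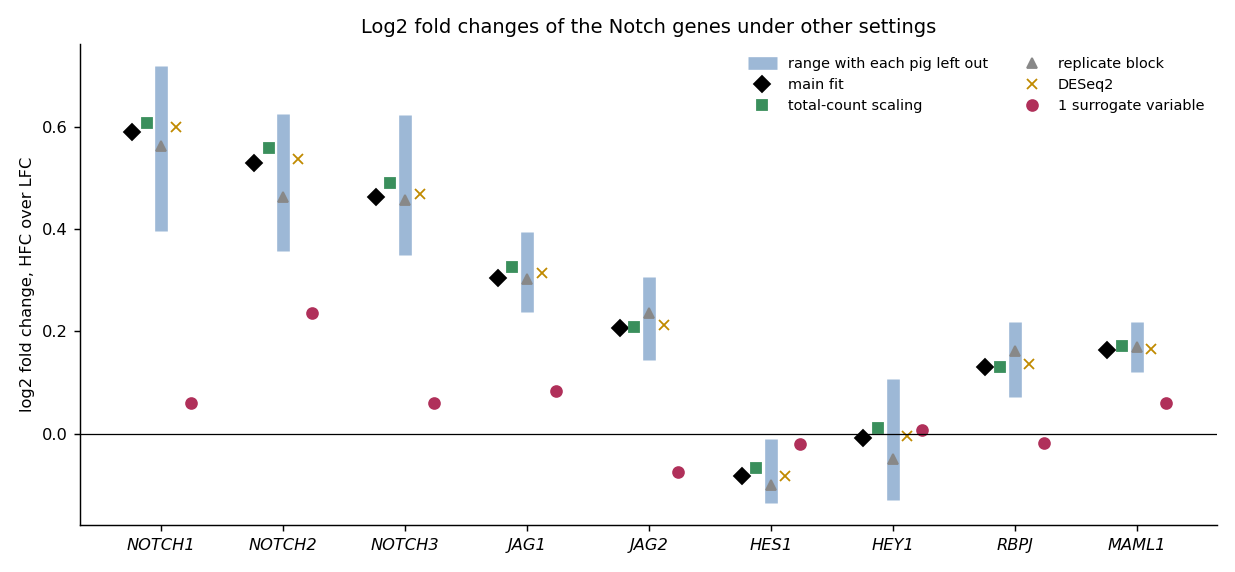
Log2 fold change, HFC over LFC, of the 9 Notch genes tested under the main model (diamonds), with each pig left out (bars from lowest to highest), with scaling by total counts (squares), the replicate number as a block (triangles), DESeq2 (crosses) and 1 surrogate variable (circles). The receptors stay between 0.35 and 0.72 with each pig left out, and lie at 0.06, 0.24 and 0.06 with the surrogate variable.

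Markers of vessel and connective tissue cells moved with NOTCH2. Over the 16 pigs NOTCH2 had r = 0.78 and rho = 0.73 with the mean of the endothelial markers, r = 0.69 and rho = 0.71 with the mural cell markers and r = 0.81 and rho = 0.76 with the fibroblast markers (adjusted permutation p between 0.00247 and 0.0387). Without the 2 farthest pigs these r were 0.68, 0.57 and 0.68. The relation with endothelial and mural markers was seen in the HFC pigs, with r = 0.91 and 0.89, and hardly in the LFC pigs, with r = 0.28 and 0.14, and the difference between groups was not tested. With fibroblast markers r was 0.85 in each group. With the stem and folliculostellate markers NOTCH2 had r = 0.48 and JAG2 r = 0.41 over all pigs, and neither passed. Within the groups NOTCH2 had r = 0.67 with them in the LFC and 0.74 in the HFC pigs. JAG2 had r = 0.92 with them in the LFC and -0.01 in the HFC pigs. NOTCH1 and NOTCH3 had r of 0.47 and 0.59 with the endothelial markers and 0.30 and 0.42 with the mural markers. With the fibroblast markers r was 0.57 and 0.62, and with the stem and folliculostellate markers 0.43 and 0.47. None of these relations passed. Within the LFC pigs r with the stem and folliculostellate markers was 0.79 and 0.84, and within the HFC pigs 0.44 and 0.49. NOTCH3 with the mural markers had r = 0.01 in the LFC and 0.63 in the HFC pigs. JAG1 with the endothelial markers (r = 0.55, rho = 0.67) and HEY1 with the glia markers of the posterior lobe (r = 0.60, rho = 0.68) passed by rho, at an adjusted permutation p of 0.0484 and 0.0482, and not by r, at 0.150 and 0.110.

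The levels of these marker lists overlapped between the groups. For comparison, 7.03% of all genes tested were higher and 4.41% lower in the HFC pigs by the unadjusted p (0.05 or less). Of 9 endothelial markers 8 were tested, and CDH5 and VWF (2 of 8) were higher in the HFC pigs by the unadjusted p (0.05 or less), with a summed level of 158 to 227 CPM in the LFC and 123 to 336 CPM in the HFC pigs. Of 9 mural markers 8 were tested and 0 passed, with sums of 83.1 to 137 CPM and 36.9 to 188 CPM. All 6 fibroblast markers were tested and 1, COL1A2, was higher, with sums of 243 to 483 CPM and 297 to 869 CPM. Of 9 markers of stem and folliculostellate cells 6 were tested and 0 passed, with sums of 478 to 638 CPM and 432 to 678 CPM. Of the leucocyte markers all 6 were tested and 0 passed, with sums of 158 to 274 CPM and 91.5 to 315 CPM. The part of these cells in the receptor levels was not tested. Neither PRL nor POMC passed with any Notch gene, NOTCH1 having r of 0.08 with PRL and -0.34 with POMC over all pigs. Within the groups, whose PRL and POMC levels differed by the unadjusted p alone, r of NOTCH1 with PRL was -0.57 in the LFC and -0.32 in the HFC pigs, and with POMC -0.15 and 0.00.

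Beyond these 10 genes, 63 further genes of the pathway were listed by their role, of which 62 were matched and 59 tested. None was called, as the adjusted p (edgeR) lay between 0.385 and 0.999. By the unadjusted p (0.05 or less), 11 of 59 (18.6%) were higher in the HFC pigs, against 7.03% of all genes, and 1 was lower, against 4.41%. The lists were chosen with earlier results of these data known. The authors had already named EP300, CREBBP, MAML3, NCOR1, TLE4 and DVL3 among the differential genes of these pigs. The excess over all genes is thus not independent support. The median log2 fold change of the 59 was 0.02. DLL3, HES5 and NEURL1B had too few counts to be tested.

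Of the 11, 3 were nuclear coactivators and 4 corepressors, proteins that many pathways share. Of 7 nuclear coactivators 3 were higher in the HFC pigs by the unadjusted p, against 7.03% of all genes. MAML3, a Mastermind coactivator, had lowest, median and highest levels of 10.05, 13.1 and 18.3 CPM in the LFC and 12.2, 18.2 and 22.8 CPM in the HFC pigs. MAML3 had a log2 fold change of 0.47 ± 0.14 (SE), with an unadjusted p of 0.00404 and an adjusted p of 0.410 (edgeR), and 7 of 8 HFC pigs lay above the LFC median. EP300, a histone acetyltransferase, spanned 32.02 to 90.2 CPM in the LFC and 46.2 to 104 CPM in the HFC pigs (log2 fold change 0.52 ± 0.19, SE). Its relative CREBBP spanned 18.3 to 56.3 CPM and 26.1 to 69.9 CPM (0.53 ± 0.22, SE). KAT2B, the coactivator with the most CPM, had a log2 fold change of -0.04 ± 0.08 (SE).

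Of 11 corepressors, which hold Notch targets silent in the absence of signal, 4 were higher by the unadjusted p, against 7.03% of all genes. TLE4, a Groucho corepressor that HES proteins recruit, had lowest, median and highest levels of 37.7, 57.6 and 75.7 CPM in the LFC and 66.0, 80.6 and 134 CPM in the HFC pigs. All 8 HFC pigs lay above the LFC median of TLE4 while the groups overlapped, and the log2 fold change was 0.62 ± 0.17 (SE), with an unadjusted p of 0.00176 and an adjusted p of 0.385 (edgeR). SPEN, which binds RBPJ in its repressing state, had a log2 fold change of 0.63 ± 0.22 (SE). NCOR1, a corepressor of nuclear receptors, had a log2 fold change of 0.46 ± 0.18 (SE), and CTBP2, a C-terminal binding protein of repressor complexes, one of 0.23 ± 0.09 (SE). HDAC2, the deacetylase with the most CPM in the list, was at -0.05 ± 0.08 (SE).

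The cleavage and sugar transfer genes act on the receptor, while the traffic and turnover list is more mixed. The authors placed DVL3, which is in that list, under Wnt signalling. Among 9 genes of receptor cleavage 1 was higher at an unadjusted p of at most 0.05, against 7.03% of all genes. It was FURIN, which cuts the receptor during its maturation, at a log2 fold change of 0.25 ± 0.11 (SE). APH1A, a subunit of gamma-secretase with the most CPM of that list, was at -0.24 ± 0.14 (SE). None of 5 enzymes that put sugars on the receptor passed, POFUT1 being the one with the most CPM, at 0.15 ± 0.07 (SE). Among 16 genes of traffic and turnover 3 were higher, against 7.03% of all genes. They were NUMBL, a relative of the Notch inhibitor NUMB, at 0.34 ± 0.10 (SE), and the Dishevelled scaffolds DVL2 at 0.23 ± 0.06 (SE) and DVL3 at 0.41 ± 0.14 (SE). DVL2 spanned 30.3 to 34.9 CPM in the LFC and 35.1 to 41.9 CPM in the HFC pigs, so its groups did not overlap. With this scaling it was the 1 gene of 13621 tested (0.00734%) with every HFC pig above every LFC pig, and after scaling by total counts alone, an alternative chosen after seeing the data, its groups overlapped. Its adjusted p was 0.385 (edgeR). DTX3, a Deltex ubiquitin ligase with the most CPM of that list, was at 0.07 ± 0.11 (SE).

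None of 5 other receptors and ligands passed. DLK1, a ligand-like protein of endocrine cells and the one with the most CPM, spanned 186 to 589 CPM in the LFC and 155 to 633 CPM in the HFC pigs, at a log2 fold change of -0.23 ± 0.29 (SE). Of 6 other target genes 0 were higher and 1 was lower, against 7.03% and 4.41% of all genes. HEY2, a repressor related to HEY1, had lowest, median and highest levels of 36.2, 39.5 and 49.7 CPM in the LFC and 30.5, 34.1 and 45.6 CPM in the HFC pigs, with 1 of 8 HFC pigs above the LFC median. Its log2 fold change was -0.20 ± 0.09 (SE), with an unadjusted p of 0.0437 and an adjusted p of 0.432 (edgeR). HES4, the other target with the most CPM, was at -0.24 ± 0.14 (SE). Of the 6 other targets 1 had a log2 fold change above 0, against 47.9% of all genes and 30.6% of the genes with the shortest spans. HES4, HES6 and HEYL have spans of that shortest class. This count was not tested.

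**Figure D5:**
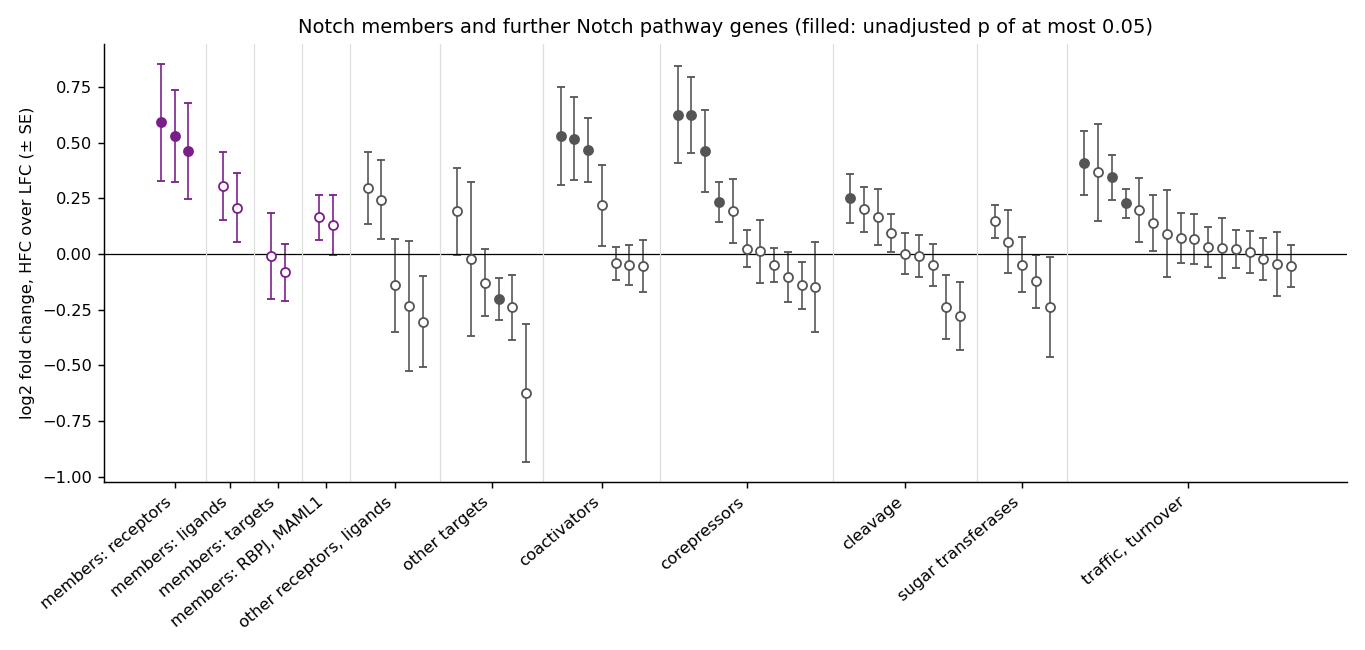
Log2 fold change, HFC over LFC, with SE (bars) of the 9 Notch genes (purple) and 59 further pathway genes (grey) by role, filled where the unadjusted p was at most 0.05. Filled points above 0 are the 3 receptors, 3 coactivators, 4 corepressors, 1 gene of cleavage and 3 of traffic, and the 1 filled point below 0 is the target HEY2 at -0.20.

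The slope on genomic span moved with most of the 11 genes too. Over the 16 pigs r with it was 0.94 for EP300 and CREBBP, 0.92 for NCOR1 and SPEN, 0.93 for DVL3, 0.84 for MAML3, 0.80 for FURIN and 0.74 for TLE4, and lower for CTBP2 (0.61), NUMBL (0.54) and DVL2 (0.44). With 1 surrogate variable in the model 5 of the 59 were higher and 5 lower by the unadjusted p, against 2.58% and 2.01% of all genes. The log2 fold change was then 0.42 for TLE4, 0.22 for MAML3, 0.26 for NUMBL and 0.20 for DVL2, with unadjusted p of 0.0139, 0.0417, 0.0240 and 0.00375 (edgeR), and -0.29 for HEY2 with an unadjusted p of 0.00639. The other genes with an unadjusted p of at most 0.05 in that model were POGLUT1 (0.17) on the higher side and DLK1 (-0.58), HES4 (-0.37), KAT2A (-0.23) and FBXW7 (-0.20) on the lower side, of which POGLUT1, KAT2A and FBXW7 are named after their values were seen. For EP300 and CREBBP it was 0.15 and 0.08.

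The libraries did not keep the strand, and the reference annotation places another gene over part of NOTCH2 (LOC102160224), NOTCH3 (LOC100628051), HES1 (LOC102164131), RBPJ (LOC106504605) and MAML1 (LOC106507308). Reads from such an overlap cannot be told apart by strand, so the levels of these 5 genes may include some. NOTCH1 and JAG2 were not checked for overlaps, since they lie on unplaced scaffolds for which that annotation gave 0 genes.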

How the data were processed

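Pituitary RNA of 16 Złotnicka White gilts was sequenced from libraries without strand information. After trimming, the authors used STAR and RSEM on Sscrofa11.1 and its Ensembl genes, and deposited unnormalized counts per gene and pig. The submitters' processing notes also list CASAVA 1.8.2, FastQC and DESeq2. The counts are whole numbers although RSEM gives estimates, so they may have been rounded. A second deposited table gives Ensembl numbers, positions and symbols beside the authors' own comparison (group means, ratios, log2 values and p-values), whose values were not used. Libraries of another breed were not analysed here.

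Groups and replicate numbers were taken from the labels, and 0 count columns were unmatched. The Notch genes and gene lists were chosen with earlier results of these data known. A gene of the pathway lists is not reported here and was left out of the counts. Symbols were taken from the deposited table (9550 genes), a gene name table (5875) or by position (449). In R 4.3.3, edgeR 4.0.16 fitted group with TMM scaling to the 13621 genes that passed filterByExpr, and tested it by quasi-likelihood F. P-values were adjusted over all of them (Benjamini-Hochberg). The call rule was an adjusted p up to 0.05 with a fold change from 1.3, and the SE was the log2 fold change over the square root of F. CPM per pig uses all counted reads. Single values were compared on log2(CPM + 1), or as shares, by exact two-sided permutation over 12870 splits. Correlations had 100000 resamples (Python 3.11.15, numpy 2.4.6, scipy 1.17.1, pandas 2.3.3) and adjustment over 36 or 90 relations. Genes were named if they were Notch genes, the gene with the highest CPM of a pathway list, or a pathway gene with an unadjusted p of at most 0.05, and for each Notch gene the most similar gene.

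The common coefficient of variation between pigs was 0.249. All pairs of libraries in a group differed beyond sampling noise (chi-square per degree of freedom from 11.8). Tested on simulated data for HFC against LFC with 13621 genes, edgeR found 75 of 100 genes changed 2-fold and 39 of 100 changed 1.5-fold and called 5 unchanged genes. DESeq2 found 83 and 57 and called 23. Alternatives were DESeq2 1.42.0, limma 3.58.1 voom with quality weights, other scalings (RLE, upper quartile, total counts), no filter, a minimum of 10 counts in each pig, robust estimation, a prior count of 0.5 in place of 2, a pseudocount of 0.1, a replicate block, 1 surrogate variable (sva 3.50.0) and each pig left out.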

Additional observations from a re-analysis of the deposited data

How the results depend on the processing

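Of the 9 Notch genes and the 59 further pathway genes, 0 were called under any alternative. Among all genes, DESeq2 called 30, against 0 by edgeR. The count of Notch genes higher in the HFC pigs at an unadjusted p of at most 0.05 was 3 (7.03% of all genes), but 1 (4.69%) with total counts as scaling, 0 (2.58%) with 1 surrogate variable and 0 to 5 (4.53% to 13.8%) with each pig left out. For the further pathway genes the count of 11 higher (7.03% of all genes) became 5 (2.58%) with 1 surrogate variable and 8 to 15 (4.53% to 13.8%) with each pig left out. The count of 1 lower (4.41% of all genes) became 3 (9.01%) with voom, 5 (2.01%) with 1 surrogate variable, 0 (5.51%) with total counts, 0 (4.02%) without a filter, 0 (3.71%) with at least 10 counts in every pig, and 0 to 2 (2.33% to 11.8%) with each pig left out. The cause was not tested.

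With the replicate number as a block, 3 Notch genes were higher, now NOTCH2, NOTCH3 and JAG1 (unadjusted p of 0.0268, 0.0485 and 0.0112, edgeR's quasi-likelihood test). NOTCH1 then had a log2 fold change of 0.56 (unadjusted p of 0.0651 by edgeR's quasi-likelihood test), and 0 further pathway genes were lower. Of all genes 6.66% were higher and 3.65% lower in that model. Pigs with the same number had correlations of their deviations from -0.34 to 0.37, so the numbers do not pair the pigs. The block thus shows nothing about the strength of a difference. With voom and quality weights NOTCH2, NOTCH3 and JAG1 were also higher, against 9.64% of all genes. Their unadjusted p by limma's moderated t-test was 0.0238, 0.0156 and 0.0238. That of NOTCH1 was 0.0576, so NOTCH1 did not pass there either.

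The log2 fold change turned sign for JAG2 (-0.075) and RBPJ (-0.019) with 1 surrogate variable, and for HEY1 with total counts (0.011), with at least 10 counts in every pig (0.0098), with 1 surrogate variable (0.0082) and with pigs left out (-0.13 to 0.11). With each pig left out, the share of the summed counts, HFC minus LFC, ran from -1.55 to 0.658 percentage points for NOTCH2, -1.48 to 0.0590 for NOTCH3, -0.0332 to 1.56 for JAG1 and -0.113 to 0.157 for DLL1. Shares per kilobase were not run, since no transcript lengths were at hand. Counts of 3 to 23 per pig limit DLL1.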
